A study of Mus musculus with 2 samples.

Results

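The cytosolic ribosomal protein genes were compared between the hypothalamus of Crtc1 knockout mice and that of wild-type mice. The members were the probe sets that the array's platform annotation pairs with a single gene whose symbol is that of a cytosolic ribosomal protein (Rps or Rpl with a number, Rplp0, Rplp1, Rplp2 or Rpsa). There were 101 such probe sets for 47 genes, out of 45037 probe sets and 18193 genes named from a single-gene probe set. Of the 47 genes, 23 encode proteins of the small (40S) and 24 of the large (60S) subunit. Both groups were males of 12 weeks that went without food for 18 h and then ate for 6 h, and for each genotype equal amounts of RNA from 3 animals made up 1 pool, measured on 1 array. The sources used here give neither the strain nor how, and in which cells, the Crtc1 allele was altered. The product of Crtc1 joins the transcription factor CREB at its target genes and raises their transcription, and the study's title names energy balance and fertility as its subject.

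A cytosolic ribosome joins a small subunit, which reads the mRNA, to a large subunit, which forms the peptide bond and lets the nascent chain out through a tunnel. Each subunit holds one copy of nearly every ribosomal protein, so their mRNAs are made in a balanced way in all cells. These mRNAs begin with a terminal oligopyrimidine (TOP) tract, a run of C and T bases at the cap. Through it their translation follows nutrient signals by way of mTOR and the repressor LARP1.

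Ribosomal protein genes have many processed pseudogenes and close copies, and many of their probe sets cannot tell these transcripts apart. Of the 101 member probe sets, 70 were of the shared types, whose probes can match more than a single transcript: 27 had the ending _a_at, 40 _x_at and 3 _s_at. The other 31 had the plain ending _at. A further 110 probe sets were paired with several genes, a ribosomal protein symbol among them, and were not members. As a result 29 ribosomal protein symbols were paired with no single-gene probe set and are not reported here.

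A run of pyrimidines lay near an annotated start in 19 of the 41 members with a start window, and in 22 it did not. The following windows of 60 bases, 40 before and 20 from the annotated start (RefSeq, build GRCm38.p6, 5′ to 3′ on the gene's strand), belong to 7 genes described below, most of them chosen to show such a run. Capitals mark runs of at least 8 bases that are all C or T. The runs of Rps27, Rps18, Rps10, Rps6, Rpl7a and Rpl35 cover the start, and Rplp0 is shown as a member with no such run at its annotated start. Runs shorter than 8 bases or away from an annotated start were not counted, so a member without one may still have a TOP tract.
Rps27, chr3:90213629-90213688, minus strand: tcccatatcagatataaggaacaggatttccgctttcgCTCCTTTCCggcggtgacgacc
Rps18, chr17:33955646-33955705, minus strand: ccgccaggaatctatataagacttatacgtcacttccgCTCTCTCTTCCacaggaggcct
Rps10, chr17:27635225-27635284, minus strand: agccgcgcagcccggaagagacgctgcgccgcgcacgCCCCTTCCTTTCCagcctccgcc
Rps6, chr4:86857348-86857407, minus strand: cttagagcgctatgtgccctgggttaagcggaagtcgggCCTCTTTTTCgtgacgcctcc
Rpl7a, chr2:26910767-26910826, plus strand: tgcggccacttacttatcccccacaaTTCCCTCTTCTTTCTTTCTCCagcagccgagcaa
Rpl35, chr2:39005112-39005171, minus strand: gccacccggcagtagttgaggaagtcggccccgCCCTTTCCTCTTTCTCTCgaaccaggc
Rplp0, chr5:115559427-115559486, plus strand: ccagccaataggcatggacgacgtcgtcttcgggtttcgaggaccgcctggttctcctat

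Signals are linear probe-set intensities as deposited. Values under each array's floor, 20.5 for the knockout and 20.2 for the wild-type pool, were set to it. Probe sets were called measured when their average log2 signal was at least the median of all probe sets, a signal of 52.3, and each gene is represented by the brightest of its measured probe sets. Every difference is a log2 value of knockout minus wild type. With 1 array per genotype no test was possible, and replicates to check a difference against were not at hand. The array error beside a difference is the SD between probe sets of the same gene. It is taken over all genes whose probe sets average a signal similar to that of the probe set given. It holds no spread between mice. Over the 14 members with several probe sets averaging a log2 signal of 10 or more, that SD was 0.34. It is 0.17 over all such genes. Both SDs include dim probe sets, such as one of Rpl37a at 1.82 (mean log2 signal 7.06). Neither is therefore the error of bright probe sets alone. The label of the knockout pool was borne out by Crtc1, whose brightest probe set read 85.1 in the knockout pool, against 631.3 in wild type. Of 13 hypothalamic peptide genes 10 were measured, from -0.82 (Cartpt) to 0.56 (Avp). Of the 10, 3 were higher and 7 lower, where 50.9% and 49% of all measured genes were. At least 1.2-fold higher were 2 and lower 3, where 11.9% and 9.97% of all measured genes were. Their summed signals were 10822 in the knockout and 11096 in the wild-type pool, and none of 5 pituitary markers was measured.

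Ribosomal protein transcripts stood at nearly the same level in the knockout and wild-type hypothalamus. Of the 47 genes 43 were measured, with a median difference of -0.04, against 0.00 over all 11312 measured genes. The difference was under 1.2-fold in 39 of the 43 (90.7%, and 78.1% of all measured genes). It was under the array error in 38 of the 43, and in 8554 of all 11312 measured genes. At a mean log2 signal of 10 or more, 30 of 34 members and 1463 of 1756 other genes were under the array error. Rps20 (-0.18) was just past its array error of 0.17. The members' own SD of 0.34 would put Rplp0, Rps24 and Rps20 under it and Rps18 at it, and both SDs include dim probe sets. The 4 members at least 1.2-fold apart, Rps27, Rps18, Rps24 and Rplp0, were all lower in the knockout pool. They were 9.3% of the members, where 9.97% of all measured genes were at least 1.2-fold lower. None of the members was at least 1.2-fold higher, where 11.9% of all measured genes were. Among genes with a mean log2 signal of 10 or more, 3 of 34 members and 46 of 1756 other genes were at least 1.2-fold lower. None of these members and 35 of the other genes were as much higher. Under 1.2-fold were 91.2% of these members and 95.4% of the other genes. Rps27 was the 1 member at least 1.5-fold and 2-fold lower, where 1.44% and 0.168% of all measured genes were. No member was higher by so much, where 2.06% and 0.265% of all measured genes were.

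Bright member probe sets spread about as little as other bright probe sets. Of the 59 member probe sets with a mean log2 signal of 10 or more, 94.9% differed by under 1.2-fold, and of the 2716 other probe sets in that range 94.4% did. The SD of the difference there was 0.12 over members and 0.14 over the others. Over all 82 measured member probe sets 37 were higher and 45 lower, where 51.6% and 48.3% of all measured probe sets were. At least 1.2-fold higher were 5 and lower 5 (14.7% and 11.8% of all), at least 1.5-fold 3 and 1 (2.9% and 1.9%), and at least 2-fold 1 and 1 (0.351% and 0.262%). Below a mean log2 signal of 10 the members spread more widely, as other probe sets did, and every member probe set past 1.5-fold had a mean log2 signal under 8. From 7 to 8 the SD was 0.81 over 8 member probe sets and 0.28 over the others. Past 1.5-fold there were 3 of the 8 (37.5%), and 3.99% of the others.

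**Figure D1:**
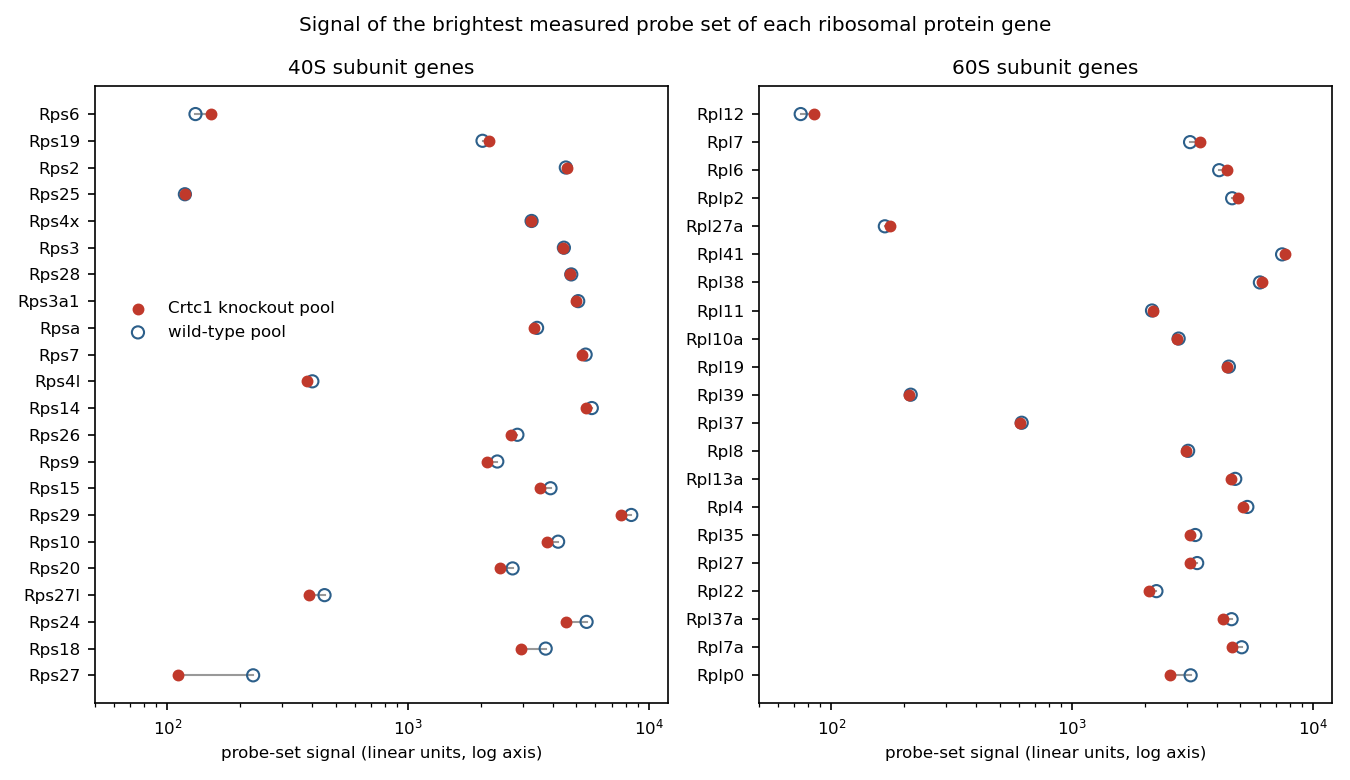
Signal of the brightest measured probe set of 22 genes of the 40S and 21 of the 60S subunit in the Crtc1 knockout pool (filled) and the wild-type pool (open), 1 array each, on a log axis, with genes ordered by their difference. Within most genes the 2 points lie close together, and Rps27 at the bottom left shows the widest gap (110.6 in the knockout and 227.2 in the wild-type pool); levels of different genes come from different probes and cannot be set against each other.

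More genes were slightly lower than slightly higher in the knockout pool, but not by every probe set. By their brightest probe sets 31 of 43 members (72.1%) were lower and 12 higher, where 49% of all measured genes were lower and 50.9% higher. Among other genes with a mean log2 signal of 10 or more, 979 of 1756 were lower, with a median of -0.02, and the 34 members in that range had a median of -0.05 with 26 lower. When all measured probe sets of a gene were averaged the median of the members was 0.0012 and 22 of 43 were higher, so the direction of the group turned with that choice. The median of the members stayed below 0 under median centring, quantile normalization and signal-dependent loess, at -0.10, -0.04 and -0.03. The medians of all measured genes were -0.06, 0.00 and 0.00 in these settings. Those of other genes with a mean log2 signal of 10 or more were -0.08, 0.00 and 0.00. Over the 15 members measured without shared probe sets the median was -0.02, with 7 higher and 8 lower.

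Within a gene, the brightest probe set and the dimmer ones often pointed opposite ways. Among the 19 members with at least 2 measured probe sets, the brightest was lower in the knockout pool in 17, with a median of -0.11. The dimmer probe sets of the same 19 genes, taken as their median per gene, were higher in 15 and lower in 4, with a median of 0.06. Over all 5199 genes with at least 2 measured probe sets both values were near 0, with 49.3% lower by the brightest and 48.9% by the dimmer ones. In 16 of the 19 members the probe sets had both signs, and in 3 (15.8%) all had the same sign, against 42.5% of all such genes. Those 3 were Rps10, Rps15 and Rpl7. Of the 13 members with at least 3 measured probe sets 2 (15.4%) had a single sign, where 24.7% of all such genes did.

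**Figure D2:**
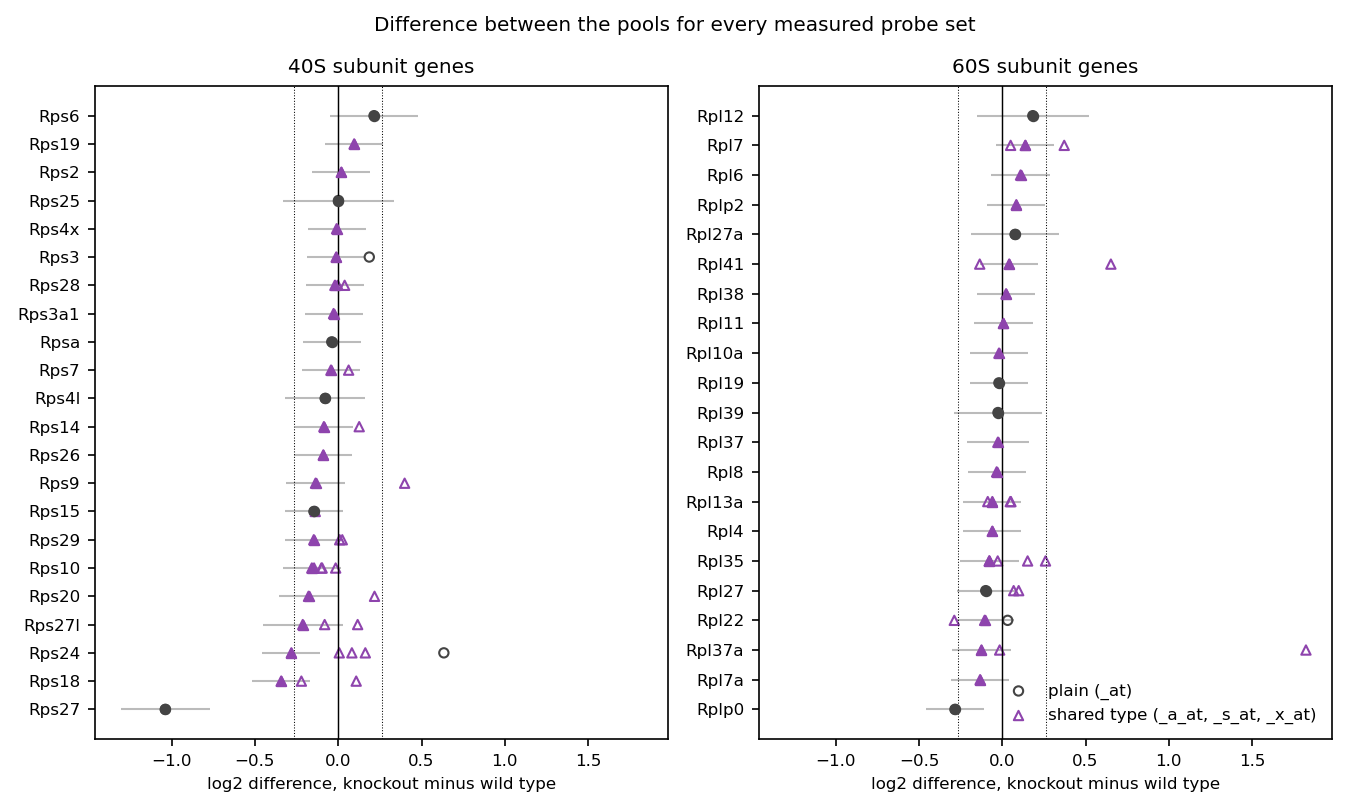
Log2 difference, knockout minus wild type, of every measured probe set of the 40S and 60S genes, with circles for plain and triangles for shared types. Filled symbols are the brightest probe set of a gene with its array error as a bar, and dotted lines mark 1.2-fold; most filled symbols lie just left of 0, with dimmer probe sets of the same gene to their right, farthest for Rpl37a at 1.82.

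By their brightest probe sets, small-subunit genes were 18 of the 31 lower members and 22 of the 43 measured ones. Of the 22 measured 40S genes 18 were lower and 4 higher, with a median of -0.08. Of 21 measured 60S genes 13 were lower and 8 higher, with a median of -0.03, where 49% of all measured genes were lower. With averaged probe sets the 40S median was -0.0044 and the 60S median 0.0070. Without shared probe sets they were -0.019 over 8 genes and -0.020 over 7, so the 40S median was not the lower there. Whether the subunits differ was not tested.

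The largest difference by a gene's brightest probe set was that of Rps27, which encodes a zinc-finger protein of the small subunit. Its probe set 1460699_at read 110.6 in the knockout pool, against 227.2 in wild type, 2.05-fold lower (-1.04, array error 0.27). The 8 member probe sets with a mean log2 signal of 7 to 8, this one among them, had an SD of 0.81. It is the only single-gene probe set of Rps27, so no other reading of that gene was at hand. The value was between -1.10 and -0.94 in each of the 9 alternative settings that measured it. Among these, changes of the floor, the filter or the choice of probe sets could not move it. Rps27l, the paralog of Rps27 known as a p53 target, had 3 probe sets. They read 387.9, 355.1 and 326.5 in the knockout pool, against 449.7, 375.8 and 301.2 in wild type. The brightest differed by -0.21, inside its array error of 0.24, and the dimmest by 0.12, so the paralog had no settled direction.

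Among proteins near the decoding centre and the P site, Rps18 and Rps15 were lower. Rps18, in the head of the small subunit, read 2938.7 and 2704.6 by its 2 brightest probe sets in the knockout pool, against 3726.8 and 3153.4 in wild type, and these differed by -0.34 and -0.22 (array error 0.17). Its other measured probe set read 2529.4 in the knockout and 2347.5 in the wild-type pool (0.11), and the mean of the 3 was -0.15. Rps15 read 3526.9 and 3176.5 in the knockout and 3902.8 and 3495.7 in the wild-type pool. Both of its probe sets were about equally lower, by -0.15 and -0.14, which is under the array error. Rps16 had 1 probe set of its own, which was not measured, at 0.7 in the knockout pool, against 4.4 in wild type, both below the floor.

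Genes of proteins along the mRNA path differed by under 1.2-fold. At the entry, Rps2 read 4576.4 in the knockout and 4518 in the wild-type pool, and Rps3, which also has a role in DNA repair, read 4398 and 4435.7 in the knockout and wild-type pools. The differences were 0.02 and -0.01, and a dim plain probe set of Rps3, at 180 in the knockout and 158.2 in the wild-type pool, was 0.19 (array error 0.27). At the exit, Rpsa, also known as the laminin receptor precursor, read 3341.1 in the knockout pool, against 3432.8 in wild type (-0.04). Rps14, Rps26 and Rps28 differed by -0.09, -0.09 and -0.02, and by their second probe sets Rps14 and Rps28 were 0.13 and 0.04. By the brightest probe set all of these were under the array error.

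Rps24 and Rps10 show how far probe sets of the same gene can part or agree. Both, with Rps19, are mutated in human Diamond-Blackfan anaemia, a failure of red cell production. The 4 bright probe sets of Rps24 read 4533.9, 1771.6, 1536.3 and 1335.4 in the knockout pool, against 5511, 1764.1, 1451.7 and 1193.2 in wild type. Only the brightest was lower (-0.28), the others were 0.01, 0.08 and 0.16, and a dim plain probe set, at 79.3 in the knockout and 51.1 in the wild-type pool, was 0.63. The gene's value therefore turned to 0.12 with averaged probe sets. Rps10 was lower by all 5 measured probe sets, from -0.16 to -0.02, each under its array error. By its brightest it read 3759.7 in the knockout pool, against 4197.5 in wild type. Rps19 read 2176.5 in the knockout and 2037.3 in the wild-type pool (0.10). The list of that disease had 17 members, of which 11 were measured. Their median was -0.09, with 9 lower and 2 higher, where 72.1% of all measured members and 49% of all measured genes were lower. At least 1.2-fold lower were 2, Rps24 and Rps27, where 9.97% of all measured genes were.

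The remaining small-subunit genes lay within 1.2-fold by their brightest probe sets. Rps20, Rps29 and Rps9 differed by -0.18, -0.15 and -0.14 there, and each had a dimmer probe set that was higher, by 0.22, 0.02 and 0.40. Rps7, Rps3a1, Rps4l, Rps4x and Rps25 differed by -0.08 to 0.00. Rps6, the protein that S6 kinases phosphorylate and whose phosphorylated form marks active neurons, was the highest 40S gene. It read 151.9 in the knockout pool, against 130.9 in wild type by its only measured probe set (0.21, array error 0.27).

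By each gene's brightest probe set, the lowest and the highest difference of the large subunit were both those of stalk genes. The stalk is the lateral arm that recruits elongation factors. Rplp0, which anchors the stalk to the ribosome, read 2549.8 in the knockout and 3105.5 in the wild-type pool, 1.22-fold lower (-0.28, array error 0.17, 1 plain probe set). It lay between -0.34 and -0.25 in the 10 alternative settings, so it was just under 1.2-fold at the smallest. With 1 bright plain probe set, changes of the floor, the filter or the choice of probe sets could not move it. Rplp2, a partner of Rplp1 at the tip, read 4895.8 in the knockout pool, against 4618.2 in wild type (0.08). Rpl12, at the base of the stalk, read 84.7 and 74.6 in the knockout and wild-type pools (0.18, array error 0.34), the highest 60S difference by a gene's brightest probe set.

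Proteins of the catalytic core and the exit tunnel were close to equal in both pools. Rpl8, which reaches towards the peptidyl transferase centre, read 2961.1 in the knockout and 3031.8 in the wild-type pool (-0.03). Rpl4, which narrows the tunnel, read 5123.3 and 5340.8 in the knockout and wild-type pools (-0.06). Rpl19, at the mouth of the tunnel, read 4413.7 and 4476.3 in the knockout and wild-type pools (-0.02). Rpl39, a small protein of the tunnel wall, read 209.8 in the knockout pool, against 213.6 in wild type (-0.03). Rpl35, at the tunnel mouth, had 5 measured probe sets between -0.08 and 0.26, 3 lower and 2 higher. Rpl11, which holds 5S rRNA together with Rpl5 and binds Mdm2 when ribosome assembly fails, read 2156.8 in the knockout and 2146.3 in the wild-type pool (0.01).

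Of the other large-subunit genes, Rpl7a was the next lowest after Rplp0, at 4616 in the knockout pool, against 5062.3 in wild type (-0.13), and Rpl7 and Rpl6 were the next highest after Rpl12. Rpl7 read 3398.8 in the knockout and 3088.6 in the wild-type pool (0.14) and was higher by all 3 of its probe sets, up to 0.37. Rpl6 read 4401.6 and 4079.9 in the knockout and wild-type pools (0.11). By their brightest probe sets these 3 genes were under the array error. Rpl13a, often used as a reference gene, had 4 probe sets between -0.09 and 0.05. Rpl27a, Rpl41, Rpl38, Rpl37 and Rpl27 lay between -0.10 and 0.08 by their brightest probe sets.

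Rpl37a had the widest gap between probe sets of all members. Its 2 bright probe sets read 4212.9 and 3974.4 in the knockout pool, against 4594 and 4018.3 in wild type (-0.12 and -0.02). A dim probe set of the shared type, 1416218_x_at, read 251.6 in the knockout pool, against 71.1 in wild type, 3.54-fold higher (1.82). With it, the average over the 3 probe sets was 0.56. Rpl41, whose product is among the smallest of all proteins, had a similar split, with 0.04 and -0.14 by its bright probe sets and 0.65 by a dim one at 166.4 in the knockout and 105.9 in the wild-type pool.

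The tagged ribosomal proteins used to purify translating mRNA from chosen brain cells differed by less than the array error, by their brightest probe sets. Rpl22, the RiboTag protein, read 2079.9 in the knockout pool, against 2238.9 in wild type (-0.11), and its other probe sets were -0.29 (array error 0.19) and 0.03. Rpl10a, the TRAP protein, read 2730.4 and 2768.8 in the knockout and wild-type pools (-0.02).

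The tissue-restricted paralogs were not measured. Rpl3l, a form found in striated muscle, read 12.7 in the knockout and 2.4 in the wild-type pool, both below the floor. Rpl39l, known from the testis, read 29.5 in the knockout pool, against 27.8 in wild type. The remaining unmeasured member, Rpl14, read 56.7 and 40.4 in the knockout and wild-type pools by a dim probe set just under the limit.

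**Figure D3:**
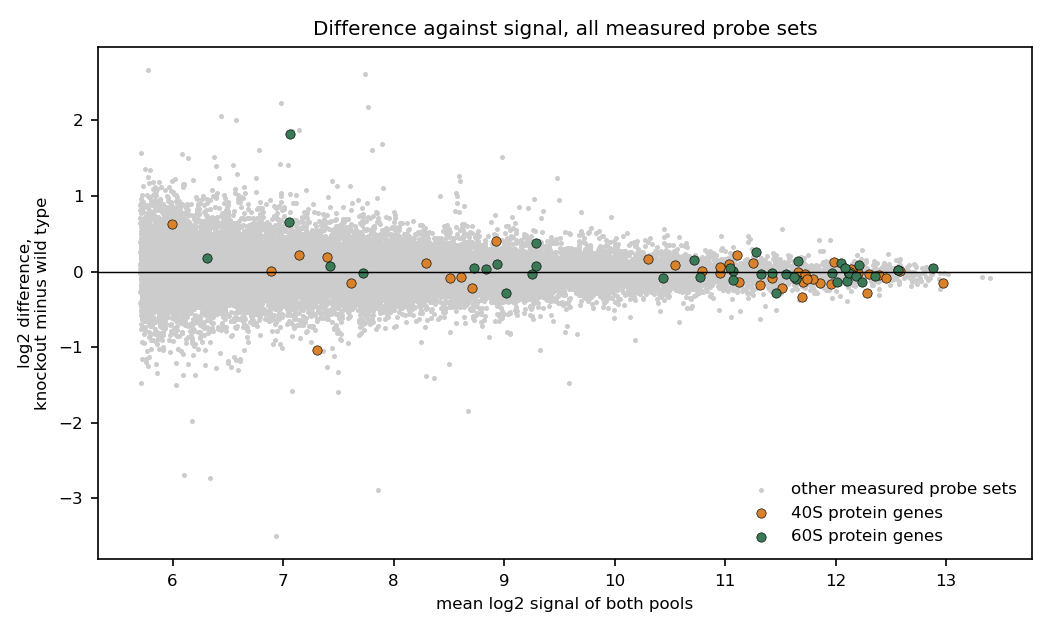
Log2 difference, knockout minus wild type, against the mean log2 signal of both pools for 22519 measured probe sets, with members in colour. The members crowd at the bright end, most of them inside the band of the other probe sets, and the few far from 0 lie below a mean log2 signal of 8.

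The rest of the translation machinery was likewise close in both pools, with most mitochondrial ribosomal protein and initiation factor genes slightly lower. Of 19 other genes with TOP mRNAs 18 were measured, 9 higher and 9 lower, with a median of 0.00 and none at least 1.2-fold apart. The elongation factor genes Eef1b2 and Eef2 stood at its ends with 0.22 and -0.19, followed by the poly(A)-binding protein gene Pabpc1 at 0.14 and the initiation factor gene Eif3a at -0.13. Mitochondrial ribosomal protein genes, which serve another ribosome and carry no TOP tract, had a median of -0.07 over 76 genes, with 51 lower and 25 higher. Mrpl37 and Mrpl54 were highest at 0.42 and 0.32, and Mrps10 and Mrps2 lowest at -0.37 and -0.34. Initiation factor genes had a median of -0.07, with 17 of 24 lower. Over all measured genes 49% were lower, with a median of 0.00, and over the members 72.1%, with a median of -0.04. The lowest were Eif3k at -0.38 and Eif2b3 at -0.24, and the highest Eif2b1 and Eif6 at 0.15 each. Ribosomal protein genes with other names, measured in 3 of 5 cases, were Fau at -0.17, Rpl7l1 at -0.01 and Rpl22l1 at 0.01.

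Genes that make ribosomes or steer TOP mRNAs spread more, at lower signals. Of 38 measured assembly factor genes 19 were higher and 19 lower, with a median of 0.00. The acetyltransferase gene Nat10 and Rrp12 were highest at 0.39 and 0.35, and the GTPase gene Gnl2 and Nop14 lowest at -0.39 and -0.37. RNA polymerase I genes had a median of -0.03 over 12. Its large subunit gene Polr1a read 111.1 in the knockout and 181.8 in the wild-type pool, 1.64-fold lower (-0.71), with a probe set of the opposite sign. Rrn3 was -0.25, Taf1d 0.40 and Polr1d 0.14. Of the 13 measured genes acting on TOP mRNA translation 7 were lower and 6 higher, with a median of -0.02, with 4 at least 1.2-fold lower and 1 at least 1.2-fold higher (9.97% and 11.9% of all measured genes). The S6 kinase gene Rps6kb2 read 181.4 in the knockout pool, against 261.2 in wild type (-0.53, array error 0.27) and Deptor, which encodes an mTOR inhibitor, was -0.48 with probe sets of both signs. Tsc1 and Tsc2, which encode partners in the complex that restrains mTOR, were 0.29 (array error 0.27) and -0.27 (array error 0.19). Eif4ebp2 was 0.23 and Larp1 -0.02.

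**Figure D4:**
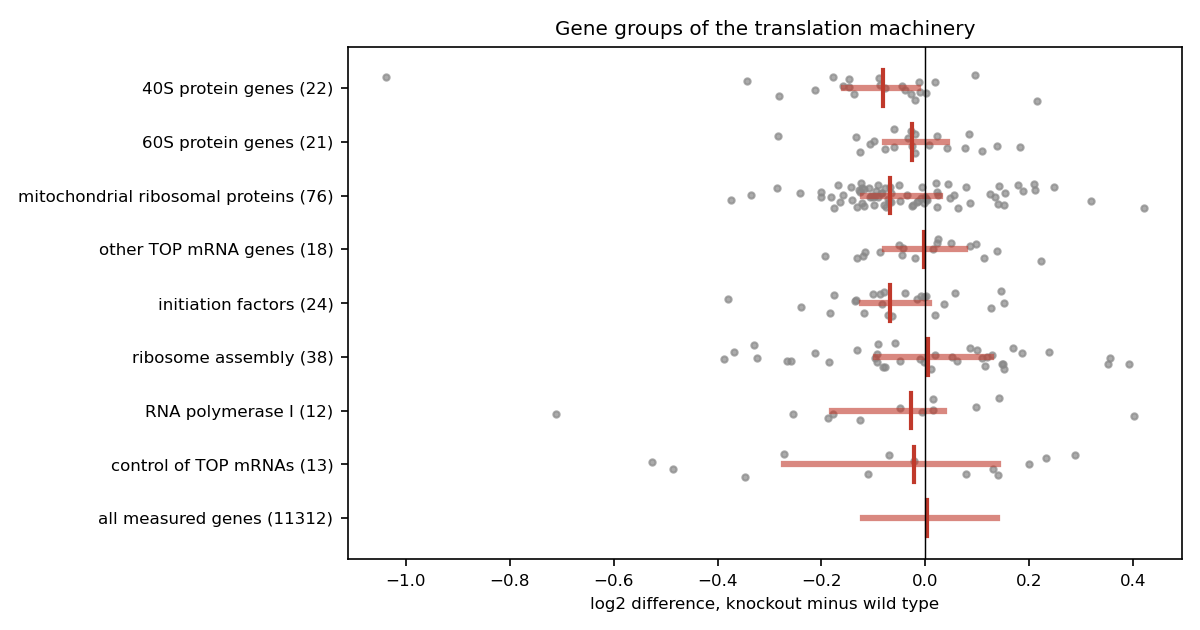
Log2 difference, knockout minus wild type, of each measured gene (grey points) in groups of the translation machinery, with the number of genes in brackets, the median as a red tick and the middle 50% of genes as a red bar. The medians lie between -0.08 and 0.00, and the lowest point is Rps27.

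Member genes shared start features that the rule did not use. Start windows of 300 bases, 250 before and 50 after each start, were in the RefSeq table for 41 of the 47 genes and for 27025 genes in all. A run of at least 8 C or T bases within 20 bases of a start, on the gene's own strand, was found in 46.3% of the members and 18.4% of all genes. The ETS core CCGGAAG, on either strand, was found in 51.2% of the members and 9.93% of all genes, and the GC box GGGCGG, on either strand, in 56.1% and 38.2%. The TATA letters TATAA, on either strand, were found in 31.7% of the members and 28% of all genes. The full cAMP response element TGACGTCA, to which CREB binds and which reads alike on both strands, was found in 2 of the 41 members (4.88%) and in 2.03% of all genes. Its core TGACG, which overlaps the full element, was found on either strand in 48.8% of the members and 23% of all genes. A gene with several starts counted where any of its windows matched, and a match describes letters, not a bound site.

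The 2 members with the full element, Rps9 and Rpl27a, are shown because Crtc1 acts through CREB. Capitals mark the element, which begins 57 bases before the start of Rps9 and 97 before that of Rpl27a (RefSeq, GRCm38.p6, plus strand, 5′ to 3′).
Rps9, chr7:3703958-3704017: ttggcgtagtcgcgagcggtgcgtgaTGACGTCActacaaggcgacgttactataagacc
Rpl27a, chr7:109519072-109519131: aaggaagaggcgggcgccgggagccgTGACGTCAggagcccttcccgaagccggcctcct

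By their brightest probe sets both genes differed by less than the array error. Rps9 read 2134.2 in the knockout and 2346.1 in the wild-type pool by its brightest probe set (-0.14) and 557.3 and 422.8 in the knockout and wild-type pools by the other (0.40, array error 0.24). Rpl27a read 175.9 in the knockout pool, against 166.8 in wild type (0.08). The 19 measured members with the core TGACG had a median of -0.04, with 14 lower and 5 higher, and the 18 without it a median of -0.03, with 12 lower and 6 higher. The 18 measured members with a pyrimidine run had a median of -0.07 and the 19 without a run -0.02, with 13 lower in each. The 20 measured members with the ETS core had a median of -0.02, with 11 lower and 9 higher, and the 17 without it a median of -0.10, with 15 lower and 2 higher. These groups of members were not tested against each other.

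**Figure D5:**
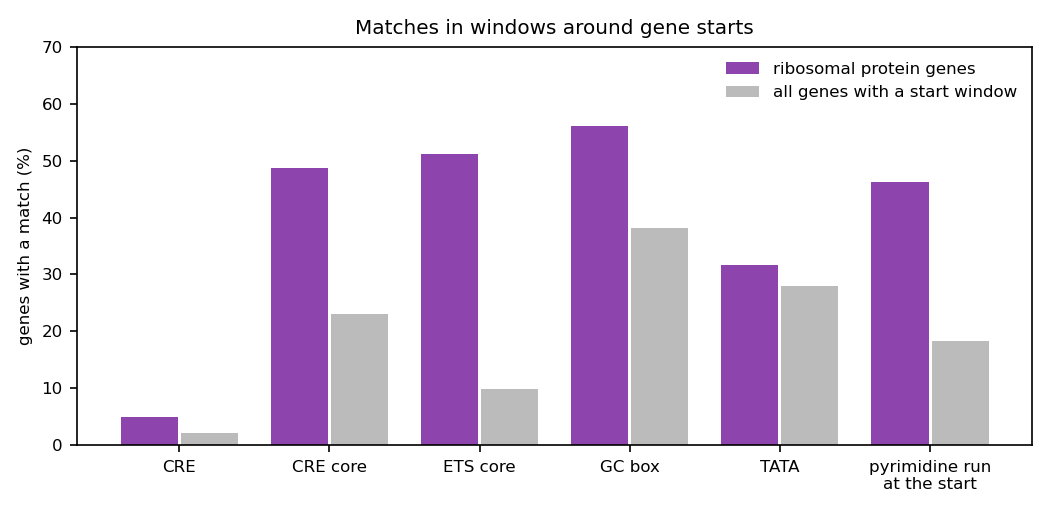
Share of genes, in percent, with a match in a window around an annotated start, for 41 ribosomal protein genes and 27025 genes in all. The bars of the members are the higher of each pair, most of all for the ETS core at 51.2% and 9.93%.

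The pools differed in other ways that were measured beside these results. Over all measured genes 50.9% were higher and 49% lower in the knockout pool. Choroid plexus markers were lower in all 7 of 7 genes (median -0.37), with summed signals of 8825 in the knockout and 9982 in the wild-type pool. Microglia markers were higher in 6 of 8, with summed signals of 4409 and 3848 in the knockout and wild-type pools. Astrocyte markers were higher in 6 of 7, with summed signals of 13165 and 12582 in the knockout and wild-type pools. Aqp4 was 1.26-fold higher, and the others differed by -0.0037 to 0.12. Endothelial markers were higher in 3 of 5, with sums of 1551 and 1396 in the knockout and wild-type pools. Cldn5 and Flt1 were 1.29-fold and 1.27-fold higher, and Pecam1, Slco1a4 and Cdh5 differed by 0.08, -0.01 and -0.07. Neuronal markers were higher in 3 and lower in 5, with sums of 31198 and 31298 in the knockout and wild-type pools, and those of oligodendrocytes higher in 3 and lower in 3, with sums of 16833 in the knockout and 17076 in the wild-type pool. The ratio of the 3′ to the 5′ control signal was 1.47 in the knockout pool, against 1.25 in wild type for actin, and for Gapdh it was 0.863 in the knockout and 0.873 in the wild-type pool. Their part in the ribosomal protein values was not tested, and in a bulk sample fewer cells of a type and less RNA per cell cannot be told apart. No member lies on chromosome 8, which carries Crtc1.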

How the data were processed

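RNA of 1 pool per genotype was measured on 1 Affymetrix array each, with biotin-labelled cRNA from 30 ug of total RNA per the labels. The deposited values are linear signal intensities per probe set, and the method that summarised the probes was not given in the sources used here. Their mean without the lowest and highest 2% was 200.0 on both arrays. The deposited scaling was kept, since the array medians (54.4 in the knockout and 52.2 in the wild-type pool) differed by 0.06 on the log2 scale. The 64 control probe sets of 45101 were left out. Gene names came from the platform annotation held by GEO, in which 34945 probe sets had 1 gene, 932 several and 9160 none, with symbols of other genes updated through RefSeq (GRCm38.p6). All 47 members had an identifier there.

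Signals were floored at the 30th percentile of each array (20.5 and 20.2) and put on the log2 scale. The probe-set filter kept 22519 probe sets. Array errors were pooled within genes, in steps of the average log2 signal of a gene's probe sets. They were 0.34 under 7, 0.17 at 10 or more, and 0.27, 0.24 and 0.19 in the unit steps between. The number of arrays limits the precision. Python 3.11.15, pandas 2.3.3 and statsmodels 0.14.6 were used, and the functions were tested on simulated data. Named genes were the 5 highest and 5 lowest of each subunit, members with 3 or more probe sets of the same sign, members of the role lists, unmeasured members, and the 2 highest and 2 lowest of each other list; further members are given to account for all. The members and lists were chosen with earlier results of these data known. Alternatives were 3 scalings, 3 treatments of dim signals, 2 filters, averaged probe sets and plain probe sets alone.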

Additional observations from a re-analysis of the deposited data

How the results depend on the processing

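Of the 43 member genes, 22 had the same sign in every alternative that measured them and 21 did not. Median centring moved the median of all genes to -0.06 and, with it, the medians of the members to -0.10, of the 40S genes to -0.14, of the 60S genes to -0.085, of the other TOP mRNA genes to -0.062, of initiation factors to -0.13, of assembly factors to -0.055 and of mitochondrial ribosomal protein genes to -0.13, and left 7 members higher. Of all genes 38.9% were higher under median centring. With averaged probe sets the medians were 0.0012 for the members, -0.0044 for the 40S genes, -0.0066 for initiation factors, 0.062 for assembly factors and -0.025 for mitochondrial ribosomal protein genes. There 22 members were higher, 1 by at least 1.2-fold, and 2 were lower by as much. Of all genes with averaged probe sets 51.4% were higher, and 20.8% were at least 1.2-fold apart either way. Rps24 was then 0.12 and Rps20 0.020. Without shared probe sets 15 members were measured, 7 higher and 8 lower, with 1 at least 1.2-fold higher and 2 lower. Of all genes in that setting 51.3% were higher, and 23.1% were at least 1.2-fold apart either way. The 40S median was -0.019 there, that of other TOP mRNA genes -0.094, of RNA polymerase I genes -0.12 and of genes acting on TOP mRNAs 0.078, and Rps24 was 0.63. Signal-dependent loess left 2 members at least 1.2-fold lower, and with no filter 1 was higher by as much. At least 1.2-fold apart either way were 21.7% of all genes under loess and 25.6% with no filter. The cause of these shifts was not tested. No paired analysis was possible because each genotype had 1 array. Only 12 of the 43 gene values rest on plain probe sets, dim members are limited by signal over background, and the 4 members at least 1.2-fold apart have no replicate check.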
